A study of Macaca mulatta with 7 samples.

Results

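The collagen genes of the rhesus monkey spinal cord were taken as every gene whose symbol in the deposited feature lists reads COL, a number, A and a number. The rule found 41 genes among 28966 symbols or identifiers. Together they held 935767 unique molecular identifiers (UMIs, each standing for 1 captured RNA molecule). COL4A5 had the most UMIs, 180017, and COL10A1 the fewest, 66, and 31 of the 41 genes had at least 1000. COL9A3 and COL15A1 appear in the files without a symbol, so they are outside the rule, and COL7A1 was not analysed here.

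Nuclei were isolated from spinal cord and their RNA was sequenced nucleus by nucleus, in 7 libraries with 1 library per group, each from 1 adult animal. The intact cervical, thoracic and lumbar libraries were labelled untreated and aged 5 years, and by the study's account came from 1 uninjured cord. The other 4 libraries were spared lumbar cord after a complete injury, in which a length of thoracic cord had been cut out. They were taken at 7 days post injury (7 dpi) and 14 dpi, both at age 7 years, and at 30 dpi and 6 months (6 mpi), both at age 6 years. Injured tissue at the lesion itself was not analysed here. With 1 library per group, time, animal and library cannot be told apart, no test across samples was possible, and every interval below is a 95% interval for counting error only.

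Collagens are trimeric proteins of the extracellular matrix that contain a triple helix. Fibrillar collagens build fibres, type IV collagens build the sheet of basement membranes, the FACIT collagens sit on the surface of fibres, and transmembrane collagens are anchored in the cell membrane and can be shed. In the spinal cord, fibres and basement membranes are best known from the meninges and blood vessels, while several collagens are also made by glia and neurons.

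After filters, 63730 of 69332 barcodes were kept, with a median of 3191 to 7355 UMIs per nucleus in the 7 libraries, and no pair of libraries shared more than 33 barcodes. Nuclei were grouped by clustering in which no collagen gene was used, and a group was called X-like from marker genes, with naming thresholds set after clusters had been seen. The major classes were 22091 oligodendrocyte-like, 20586 microglia/macrophage-like, 9772 neuron-like, 4063 oligodendrocyte progenitor-like (OPC-like) and 3786 astrocyte-like nuclei. Smaller classes were 625 ependymal-like, 430 T cell-like and 140 endothelial-like nuclei, with 38 fibroblast-like and 26 mural-like nuclei, and 2173 nuclei were left unnamed. Every marker of each class was detected in it, and at least 5 of its markers were higher there than in any other class. The classes were named from these same markers, so this is not a separate check of the names. Injured and intact nuclei of 2 classes lay largely in different clusters. Of the oligodendrocyte-like nuclei, 92.3% of the injured but 1.49% of the intact ones lay in clusters 0 and 9, and the intact ones lay mainly in clusters 2, 5 and 7. Of the microglia/macrophage-like nuclei, cluster 1 held 90.45% of the intact but 0.189% of the injured ones, which lay mainly in clusters 8 (7 dpi), 3 (14 dpi), 11 and 12 (30 dpi), and 15 and 16 (6 mpi).

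Collagen RNA differed widely between the classes. Levels are given as UMIs of a gene per 1000000 UMIs of the class (CPM). Summed over the 41 genes and the 7 libraries, collagens reached 9044 CPM in the fibroblast-like nuclei, 4731 in the mural-like, 4373 in the OPC-like, 1658 in the ependymal-like, 1410 in the oligodendrocyte-like, 1312 in the neuron-like, 1215 in the astrocyte-like and 1209 in the endothelial-like nuclei. Microglia/macrophage-like nuclei had 104 CPM, the lowest of the named classes. T cell-like nuclei had 446 CPM, of which COL4A5 made up 44.25%. That class also held oligodendrocyte markers at a median of 23.0% of the oligodendrocyte-like level, and how much of its collagen signal came from free RNA was not tested.

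The leading collagen by UMIs differed between the 5 major classes. In oligodendrocyte-like nuclei COL4A5 alone made up 57.1% of the collagen UMIs. In OPC-like nuclei COL9A1 made up 39.3% and COL11A1 24.5%. In neuron-like nuclei COL25A1 made up 29.5%. No gene held more than 19.1% in astrocyte-like or microglia/macrophage-like nuclei, where COL27A1 and COL24A1 had the most UMIs with the libraries summed. COL4A5 also had the most in the ependymal-like (16.9%) and T cell-like classes. UMIs are not corrected for gene length. Per kilobase of the longest annotated transcript, COL4A5 also led in oligodendrocyte-like nuclei (124 CPM per kilobase), COL9A1 in OPC-like (465) and COL25A1 in neuron-like nuclei (51.0). The order changed in the other major classes. In astrocyte-like nuclei COL4A5 (30.95) and COL9A1 (29.5) passed COL27A1 (26.5), and in microglia/macrophage-like nuclei COL9A1 (2.93) stood beside COL24A1 (2.89). Per kilobase of the gene's span, introns included, the leaders were COL9A2 in oligodendrocyte-like (4.56), astrocyte-like (2.01) and microglia/macrophage-like nuclei (0.512), COL9A1 in OPC-like (9.70) and COL4A2 in neuron-like nuclei (0.774).

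**Figure D1:**
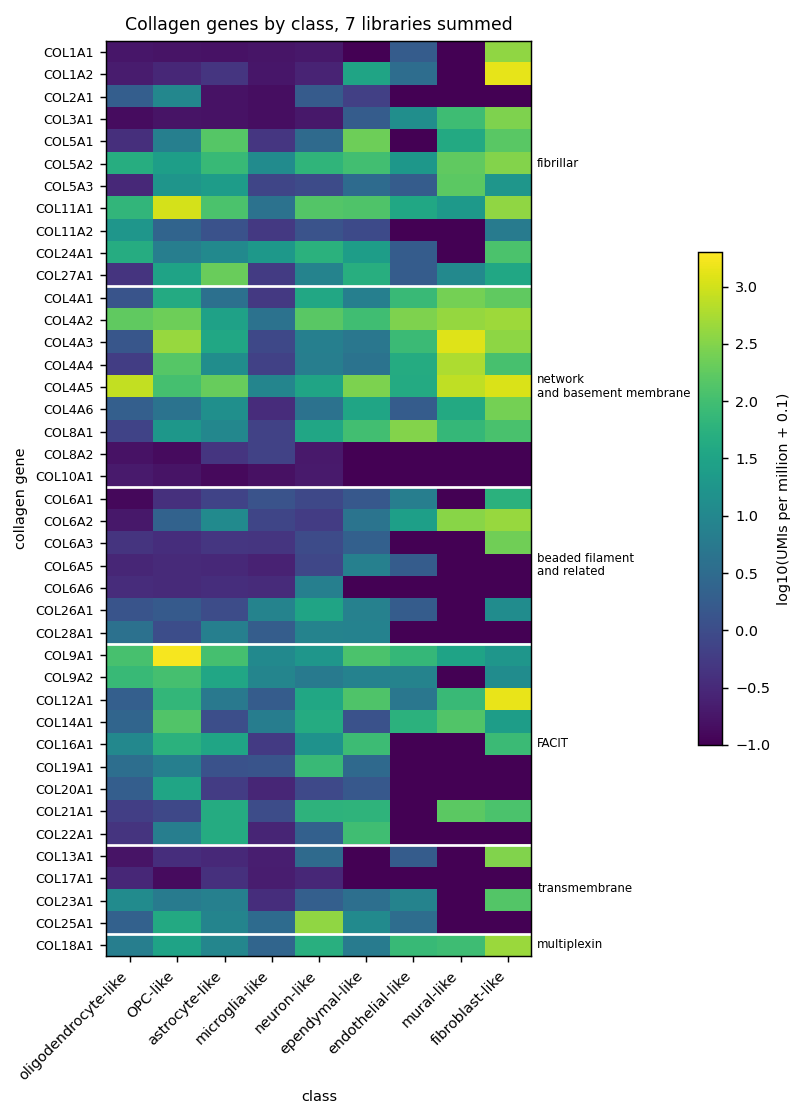
Level of the 41 collagen genes (rows, ordered by structural group) in 9 classes of nuclei (columns), as log10 of CPM plus 0.1, with the 7 libraries summed. The bright rows of the oligodendrocyte-like, OPC-like and neuron-like columns are different genes (COL4A5, COL9A1 and COL25A1). In the fibroblast-like column the brightest are COL12A1 (1426 CPM), COL1A2 (1371) and COL4A5 (1121), and COL1A1 (384) and COL3A1 (293) are among the less bright.

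Over the 3 intact libraries, 38 genes had at least 50 UMIs in the 8 classes with 50 or more intact nuclei, and each was assigned to the class where its level was highest. The ependymal-like class had the most, 11, followed by OPC-like with 8, endothelial-like with 7, neuron-like with 6, astrocyte-like with 3, oligodendrocyte-like with 2 and microglia/macrophage-like with 1. Of all genes, 2831 were highest in ependymal-like, 925 in OPC-like, 2981 in endothelial-like and 3386 in neuron-like nuclei. A further 1861 were highest in astrocyte-like, 1721 in oligodendrocyte-like, 2358 in microglia/macrophage-like and 3368 in T cell-like nuclei. The OPC-like class, second by members, thus had the fewest of all genes. The intervals of the highest and the next class were apart for each of the 8 OPC-like genes, beside 57.9% of all genes highest in that class, and for 2 of the 7 endothelial-like ones, COL4A1 and COL8A1, beside 29.4% of all genes. They were apart for 9 of the 11 ependymal-like genes (42.0% of all genes highest there), 5 of the 6 neuron-like (59.1%), 2 of the 3 astrocyte-like (54.3%), both oligodendrocyte-like (60.2%) and the 1 microglia/macrophage-like gene (54.1%), and no member was highest in T cell-like nuclei (23.0%). Intervals are wider in small classes such as the endothelial-like one. When the small fibroblast-like and mural-like groups were compared too, over all 7 libraries and 41 genes, 15 genes were highest in the fibroblast-like and 6 in the mural-like nuclei, and the ependymal-like class had 4. No share of all genes is given for that comparison, so these counts are not read against a background. Among the 5 major classes alone, 20 of 40 genes were highest in the same class in every library, beside 42.9% of all 20830 genes with at least 50 UMIs, and for 17 of them the lowest level in that class was above the highest level in any other, beside 27.0% of all genes.

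The main fibre-forming collagens of connective tissue were highest in a small group of nuclei. COL1A2, a chain of type I collagen, the main fibre of connective tissue, stood at 1371 CPM (1198 to 1563) in the 38 fibroblast-like nuclei, at 32.5 CPM (26.9 to 39.0) in the ependymal-like nuclei and at 0.0853 to 0.357 CPM in the 5 major classes. COL1A1, the other type I chain, stood at 384 CPM (295 to 491) in the fibroblast-like nuclei, and COL3A1, the type III chain of pliable tissue, at 293 (216 to 388). By library, the fibroblast-like group had 13, 7 and 8 nuclei in cervical, thoracic and lumbar intact cord, and 5, 3, 2 and 0 at 7 dpi, 14 dpi, 30 dpi and 6 mpi. Its COL1A2 level was 1522, 1475 and 1764 CPM in the intact libraries and 890, 517 and 262 in the injured libraries that held such nuclei, the last from 1 UMI. The injured values were below the intact ones, on 18, 6 and 1 UMIs. COL1A1 counts in these nuclei were 43, 7 and 9 UMIs in the intact and 1, 3 and 0 in the injured libraries, and COL3A1 counts were 22, 13 and 10 against 2, 1 and 0. With libraries pooled, the counting intervals of intact and injured nuclei were apart. They were 1349 to 1789 against 454 to 1035 CPM for COL1A2 and 350 to 593 against 30.6 to 287 for COL1A1. For COL3A1 they were 256 to 469 against 17.4 to 246. The injured counts came from only 5, 3 and 2 nuclei, each set from 1 library, so no change with injury is read from them. Nuclei left unnamed held 59 UMIs of COL1A1, 96 of COL1A2 and 35 of COL3A1, beside 63, 225 and 48 in the fibroblast-like nuclei. Cluster 49, with 13 nuclei, 10 of them cervical, scored highest for fibroblast markers and had COL1A2 among its leading genes. It was left unnamed because it also held markers of a second class, so the fibroblast-like counts depend on the naming rule.

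COL6A1, COL6A2 and COL6A3, the 3 chains of the classic type VI beaded filament that surrounds many cells, were also highest in the fibroblast-like nuclei. Their levels there were 54.9 (25.1 to 104), 439 (343 to 553) and 232 CPM (164 to 318). The interval of COL6A2 overlapped that of the mural-like nuclei (342 CPM, 235 to 480). By library, fibroblast-like nuclei held 37, 13 and 7 UMIs of COL6A2 in the intact and 11, 4 and 0 in the injured libraries with such nuclei, 17, 3 and 3 against 15, 0 and 0 of COL6A3, and no more than 3 of COL6A1 in any library. All 15 UMIs of COL6A3 at 7 dpi came from 1 nucleus. COL6A2 had 162 UMIs in all neuron-like nuclei together and COL6A3 had 300. COL6A6, another type VI chain, was highest in neuron-like nuclei (6.96 CPM against 0.268 in astrocyte-like nuclei).

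The type IV collagens, the network of basement membranes, are encoded by 6 genes in 3 pairs that lie head to head and are transcribed in opposite directions. In the RefSeq annotation of the rhesus build Mmul_10, COL4A1 (chromosome 17, 91595188 to 91748807, minus strand) and COL4A2 (91748923 to 91949867, plus strand) start 115 bases apart. COL4A4 (chromosome 12, 114457002 to 114612826, minus strand) and COL4A3 (114612842 to 114761672, plus strand) start only 15 bases apart, and COL4A6 and COL4A5 on chromosome X start 1322 bases apart. The sequences between the first pairs of starts are shown because the levels of the partners are compared below. They are written on the plus strand, with the bases between the annotated starts in capitals and 30 bases of each gene in lower case, at chr17:91748778-91748952 and chr12:114612797-114612871.
COL4A1 to COL4A2: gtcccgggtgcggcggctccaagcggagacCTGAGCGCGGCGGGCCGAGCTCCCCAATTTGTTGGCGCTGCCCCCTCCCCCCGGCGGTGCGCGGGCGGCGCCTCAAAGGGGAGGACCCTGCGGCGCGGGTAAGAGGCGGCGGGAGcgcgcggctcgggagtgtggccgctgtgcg
COL4A4 to COL4A3: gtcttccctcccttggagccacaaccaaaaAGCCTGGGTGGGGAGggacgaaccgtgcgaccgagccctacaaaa
The first window is 77.7% G and C with 26 CpG dinucleotides in 175 bases, and the other is 60% G and C with 4 in 75 bases.

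The partners of a pair did not keep the same ratio in every class. With the 7 libraries summed, COL4A2 exceeded COL4A1 by 147 times in oligodendrocyte-like nuclei (33053 against 225 UMIs), but by 5.42 times in OPC-like, 4.09 times in neuron-like, 3.604 times in endothelial-like and 1.71 times in mural-like nuclei. Gene length is the same in every class, so these ratios can be compared. The oligodendrocyte-like ratio varied widely between libraries, at 287, 860 and 757 in the intact and 26.1, 237, 36.9 and 41.6 in the injured ones, on 8 to 76 UMIs of COL4A1. On the log2 scale the interval of the ratio was 7.01 to 7.39 in oligodendrocyte-like nuclei and 2.005 to 2.06 in neuron-like nuclei. An annotated locus, LOC114673631, overlaps COL4A2 on the same strand, and reads from the 2 could not be told apart here. COL4A3 and COL4A4, whose proteins form a trimer with that of COL4A5 in kidney and other basement membranes, had a ratio of 2.97 in OPC-like, 2.86 in astrocyte-like and 2.02 in mural-like nuclei and 1.05 in neuron-like nuclei. COL4A5 exceeded COL4A6 by 430 times in oligodendrocyte-like nuclei (197 to 575 times in single libraries) and by 4.49 times in fibroblast-like nuclei.

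**Figure D2:**
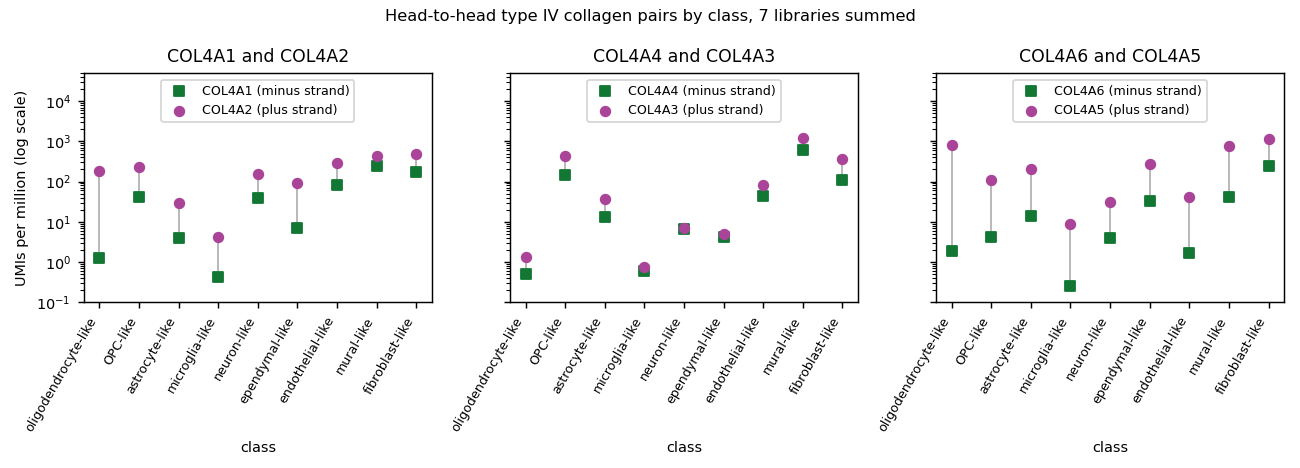
CPM on a log scale for the partners of the 3 head-to-head type IV collagen pairs in 9 classes, 7 libraries summed, with squares for the minus-strand gene, circles for the plus-strand gene and a grey line joining the partners. The longest lines are those of the oligodendrocyte-like class, where the summed COL4A2 exceeded COL4A1 by 147 times (26.1 to 860 in single libraries) and COL4A5 exceeded COL4A6 by 430 times (197 to 575).

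COL4A1 was highest in the mural-like nuclei, at 249 CPM (159 to 370), and COL4A2 in the fibroblast-like nuclei, at 475 CPM (376 to 593), and for both genes the intervals of the mural-like and fibroblast-like groups overlapped. By library, COL4A1 had 7, 5 and 4 UMIs in the intact mural-like nuclei and 4, 2 and 2 at 14 dpi, 30 dpi and 6 mpi, with no such nucleus at 7 dpi. COL4A2 had 31, 10 and 3 UMIs in the intact fibroblast-like nuclei and 31, 3 and 0 at 7, 14 and 30 dpi, where 28 of the 31 at 7 dpi came from 1 nucleus. COL8A1, a short-chain network collagen of vessel walls, was highest in endothelial-like nuclei at 317 CPM, against 116 in fibroblast-like nuclei, without overlap of the intervals.

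The comparison of injured with intact lumbar cord asked which collagen genes differed in the spared tissue below the lesion. A gene was called in a class when its level on the log2(CPM + 1) scale was at least 2-fold above, or below, intact lumbar cord in all 4 injured libraries and also outside the range of the 3 intact libraries on that side. Only genes with at least 50 UMIs in the class were considered. COL11A2 was called higher in oligodendrocyte-like nuclei, 1 of 29 members, where 0.46% of all genes were called higher, and none was called lower, against 0.398% of all genes. COL4A3 was called lower in OPC-like nuclei, 1 of 27 members, where 0.325% of all genes were called lower, and none was called higher, against 0.372%. In astrocyte-like nuclei none of 24 members was called (0.956% of all genes higher, 0.456% lower), in microglia/macrophage-like nuclei none of 22 (1.72% higher, 1.16% lower) and in neuron-like nuclei none of 37 (0.093% higher, 0.103% lower). One call among fewer than 30 genes is a small number to read against backgrounds of this size.

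COL4A3, an alpha chain of basement membrane collagen, had its highest level among the 5 major classes in OPC-like nuclei in all 7 libraries. Outside those classes, with the libraries summed, the 26 mural-like nuclei were higher. They had 1211 CPM of COL4A3 (1002 to 1452), on 117 UMIs, against 440 in OPC-like nuclei. For COL4A4 they had 601 CPM (456 to 776), on 58 UMIs, against 148. In OPC-like nuclei COL4A3 stood at 423 CPM in intact cervical, 470 in thoracic and 737 in lumbar cord and at 210, 272, 257 and 244 CPM at 7 dpi, 14 dpi, 30 dpi and 6 mpi. Every injured value was below every intact one, and the intact lumbar value was well above the other intact segments. Set against intact lumbar cord, the log2 ratios in the order of time were −1.81 (interval −1.95 to −1.68), −1.44 (interval −1.58 to −1.30), −1.52 (interval −1.62 to −1.42) and −1.59 (interval −1.80 to −1.39). With the mean of all intact libraries as the baseline, the gene no longer reached 2-fold in every injured library. At 7 dpi, 71 of 370 OPC-like nuclei lay in cluster 34, which is led by cell-division genes such as BRCA2, DTL and UHRF1 and had COL4A3 at 81.5 CPM there. In the main OPC-like cluster alone, the value at 7 dpi was 255 CPM. Its partner COL4A4, chosen after its values were seen, was also lower than in every intact library, if narrowly at 14 dpi and 6 mpi. It stood at 142, 158 and 197 CPM in the intact and 102, 135, 102 and 138 CPM in the injured libraries. The log2 ratios were −0.96 to −0.51. In the main OPC-like cluster, the 14 dpi and 6 mpi intervals, 119 to 155 and 116 to 167 CPM, overlapped the cervical one, 132 to 152 CPM. In astrocyte-like nuclei COL4A3, chosen in the same way, was at 48.0, 18.5 and 65.5 CPM in the intact and 15.2, 17.2, 27.2 and 5.39 CPM in the injured libraries, and there the thoracic value lay among the injured ones. The class was made of 2 clusters with very different levels, 85.4 CPM in cluster 13 and 4.26 in cluster 10 with the libraries summed.

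COL11A2, a chain of the fibrillar type XI collagen known from cartilage, was highest in oligodendrocyte-like nuclei among the 5 major classes in all 7 libraries. Its level was 10.3, 15.4 and 9.14 CPM in the intact libraries and 25.2, 33.1, 24.5 and 26.3 CPM in the injured ones. No injured value overlapped the intact range, and the log2 ratios to intact lumbar cord in the order of time were 1.46 (interval 1.24 to 1.69), 1.85 (interval 1.63 to 2.08), 1.43 (interval 1.21 to 1.65) and 1.52 (interval 1.25 to 1.79). A UMI of the gene was seen in 6.16% of the intact lumbar nuclei of the class and in 10.4% to 21.1% of the injured ones. Within cluster 5 of the class it was at 16.6, 23.7 and 14.8 CPM in the intact libraries and at 53.0 and 55.9 CPM at 14 dpi and 6 mpi. Within cluster 2 it was at 8.35, 10.7 and 8.19 CPM against 28.7, 10.95 and 26.4 CPM at 14 dpi, 30 dpi and 6 mpi, where the 30 dpi value, on 4 UMIs, was close to the thoracic one. In cluster 0, made mostly of injured nuclei, the injured values were 20.2 to 24.9 CPM. They were near the thoracic value in cluster 5, the highest intact one given, and above every other intact value given for clusters 2 and 5. The 58 intact lumbar nuclei of cluster 0 stood at 4.17 CPM, on 1 UMI. In cluster 9, the other mostly injured cluster, the values were 30.2, 42.6, 27.0 and 22.3 CPM in the order of time. The part of the cluster mix in the class level was not tested. An annotated locus, LOC106997910, overlaps COL11A2 on the other strand.

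COL4A2 in oligodendrocyte-like nuclei also differed between intact and injured cord without reaching the 2-fold rule, and it was called lower at a 1.5-fold rule. It stood at 226, 238 and 239 CPM in the intact libraries and at 90.1, 138, 83.1 and 128 CPM at 7 dpi, 14 dpi, 30 dpi and 6 mpi. The intact values were close together and all injured values lay below them, and the log2 ratios in the order of time were −1.41 (interval −1.48 to −1.33), −0.79 (interval −0.86 to −0.72), −1.52 (interval −1.59 to −1.45) and −0.89 (interval −0.99 to −0.80). The lower level was also seen inside single clusters: in cluster 2 the gene was at 245, 239 and 236 CPM in the intact libraries and at 127, 19.2 and 133 CPM at 14 dpi, 30 dpi and 6 mpi, on 53, 7 and 111 UMIs. COL4A5, the leading collagen of the class, stood at 754, 853 and 713 CPM in the intact and 619, 947, 945 and 854 CPM in the injured libraries. It was below the intact range at 7 dpi and above it, if narrowly at 6 mpi, in the other injured libraries, with log2 ratios of −0.20, 0.41, 0.41 and 0.26. COL4A1 in the same nuclei had at most 76 UMIs in a library and 0.277 to 3.45 CPM.

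**Figure D3:**
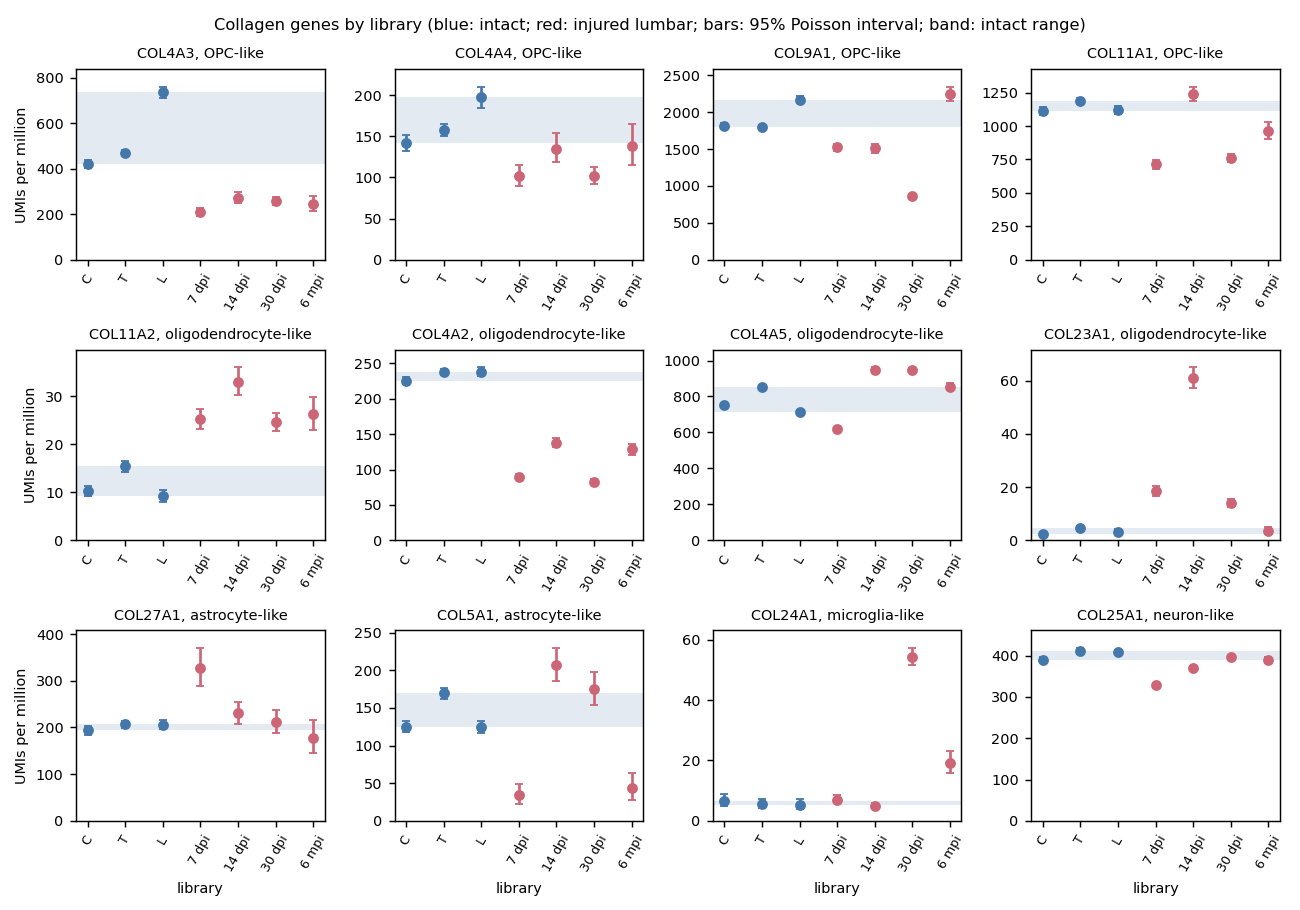
CPM of 12 gene and class pairs in each of the 7 libraries (C, T and L are intact cervical, thoracic and lumbar, in blue; injured lumbar in red), with 95% Poisson intervals for counting error and a band for the range of the 3 intact libraries. All 4 injured points lie below the band for COL4A3 and COL4A4 in OPC-like nuclei and COL4A2 in oligodendrocyte-like nuclei, and above it for COL11A2 in oligodendrocyte-like nuclei. The COL4A4 points at 14 dpi and 6 mpi lie only narrowly below the band.

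Among the other fibrillar collagens, COL11A1, the partner chain of type XI collagen, was highest in OPC-like nuclei. It stood at 1112, 1187 and 1121 CPM in the intact and 713, 1241, 761 and 965 CPM in the injured libraries, so that the 14 dpi value lay above the intact range and the others below it. In neuron-like nuclei it was at 167, 134 and 150 CPM in the intact and 133, 136, 114 and 130 CPM in the injured libraries, where the 14 dpi value overlapped the intact range. COL27A1, a fibrillar collagen known from cartilage, had the most UMIs in astrocyte-like nuclei with the libraries summed, at 194, 207 and 206 CPM in the intact and 328, 230, 212 and 178 CPM in the injured libraries. It was above the intact range at 7, 14 and 30 dpi and below it at 6 mpi, but its log2 ratios of 0.16 and 0.05 at 14 and 30 dpi became −0.01 and −0.41 when each nucleus was named on its own. COL4A5, next in the class by UMIs, stood at 208, 220 and 183 CPM in the intact and 129, 165, 180 and 142 CPM in the injured libraries, so that it exceeded COL27A1 in cervical and thoracic cord. All its injured values lay below the intact range, if narrowly at 30 dpi, where the log2 ratio was −0.03 (−0.22 to 0.17). COL5A1, a type V chain that starts fibres, was at 125, 169 and 125 CPM in the intact astrocyte-like nuclei. In the injured ones it was at 34.1, 207, 175 and 43.1 CPM. It was low at 7 dpi and 6 mpi, high at 14 dpi and only narrowly above the thoracic value at 30 dpi. The injured astrocyte-like class held only 98, 241, 143 and 109 nuclei in the 4 libraries, and the share of them in cluster 13 was 39.8%, 67.2%, 33.6% and 71.6%, against 40.7%, 19.6% and 49.1% in the intact libraries. The part of this mix in the class levels was not tested for every gene. Within cluster 13 COL5A1 was at 73.2, 93.6 and 90.02 CPM in the intact libraries and at 213 and 36.1 CPM at 14 dpi and 6 mpi, the injured libraries with at least 50 nuclei there. In cluster 10 COL27A1 was at 166.5, 202 and 193 CPM in the intact libraries and at 358, 185 and 210 CPM at 7, 14 and 30 dpi, so that at 14 dpi it was within the intact levels. COL5A1 was chosen after its values were seen.

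COL24A1, a fibrillar collagen described in bone and brain, had the most UMIs of the collagens in microglia/macrophage-like nuclei with the libraries summed, but only through the 30 dpi library: in each of the other 6 libraries COL9A1 was higher. It stood at 6.58, 5.73 and 5.32 CPM in the intact libraries and at 7.02, 4.85, 54.4 and 19.3 CPM at 7 dpi, 14 dpi, 30 dpi and 6 mpi. The 30 dpi and 6 mpi values lay far above the intact range and the 7 dpi value just above it, with log2 ratios of 3.35 (2.89 to 3.85) and 1.85 (1.32 to 2.42). The 7 dpi ratio of 0.40 became −0.18 when each nucleus was named on its own. Of the 1378 UMIs at 30 dpi, 1205 lay in cluster 12, which is led by ITGAX and GPNMB, genes known from phagocytic microglia. There the level was 121 CPM at 30 dpi and 18.0 to 31.9 CPM in the other injured libraries. A UMI was seen in 22.6% of its nuclei at 30 dpi, and its 6 mpi value rested on 4 UMIs. At 6 mpi 100 UMIs lay in cluster 15, led by GPNMB and CHIT1, at 32.0 CPM, with a UMI in 4.79% of the nuclei. COL5A2 in the class was at 12.3, 14.3 and 13.9 CPM in the intact and 5.11, 6.43, 16.0 and 19.4 CPM in the injured libraries, below the intact range at 7 and 14 dpi and above it at 30 dpi and 6 mpi. COL9A1 in the class, where OPC markers stood at a median of 0.334% of their OPC-like level and COL9A1 at 0.63%, was at 14.99, 21.0 and 8.74 CPM in the intact and 7.66, 8.14, 7.50 and 20.9 CPM in the injured libraries, where the 6 mpi value lay inside the intact range. At 7 dpi a value of 108.5 CPM of COL24A1 in astrocyte-like nuclei, chosen after it was seen, rested on 86 UMIs, of which 45 came from 1 nucleus.

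COL9A1, a chain of the FACIT collagen IX and the most abundant collagen of OPC-like nuclei, was detected in 96.5% to 99.7% of those nuclei in each library. It stood at 1815, 1795 and 2170 CPM in the intact and 1522, 1508, 863 and 2243 CPM in the injured libraries. The first 3 injured values lay below the intact range and the 6 mpi value above it. The log2 ratio at 30 dpi was −1.33 (−1.39 to −1.27). At 6 mpi the ratio of 0.05 became −0.36 when each nucleus was named on its own. In the main OPC-like cluster alone, the 7 dpi value was 1826 CPM, inside the intact values there of 1818, 1807 and 2181 CPM. Cluster 34 was at 652 CPM at 7 dpi. In oligodendrocyte-like nuclei COL9A1 was at 136, 140 and 123 CPM in the intact and 99.4, 58.7, 60.1 and 114 CPM in the injured libraries, all below the intact range. That level was 6.503% of the OPC-like one, while OPC markers stood in the same nuclei at a median of 0.564% of theirs, ranging from 0.107% to 16.7%. In astrocyte-like nuclei COL9A1 was at 103, 108 and 94.7 CPM in the intact and 175, 152, 123 and 169 CPM in the injured libraries, all above the intact range, with log2 ratios of 0.89, 0.68, 0.38 and 0.83, of which the value at 30 dpi became −0.03 when each nucleus was named on its own. Over the 7 libraries COL9A1 in astrocyte-like nuclei was at 6.35% of its OPC-like level, while OPC markers stood there at a median of 11.5% of theirs (1.16% to 14.1%), so its level was not above that of the OPC markers, and their part in the result was not tested. In the single astrocyte-like clusters the injured values with at least 50 nuclei were also above the intact ones, at 126 to 220 CPM against 75.1 to 107 in cluster 10 and at 130 to 158 against 109 to 114 in cluster 13. COL20A1, another FACIT collagen chosen after its values were seen, was highest among the 5 major classes in OPC-like nuclei in every library, at 37.5 CPM over the intact libraries against 1.47 in ependymal-like nuclei.

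COL25A1, a transmembrane collagen that is shed and is known from axons and from amyloid plaques, was the leading collagen of neuron-like nuclei. Its level was 390, 411 and 408 CPM in the intact and 328, 371, 397 and 389 CPM in the injured libraries. The value at 30 dpi lay inside the intact range, and the others lay below it, with log2 ratios between −0.31 and −0.04. COL4A2 in neuron-like nuclei was at 170, 162 and 174 CPM in the intact and 175, 122, 127 and 173 CPM in the injured libraries, below the intact range at 14 and 30 dpi and just above it at 7 dpi.

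COL23A1, a transmembrane collagen chosen after its values were seen, differed in oligodendrocyte-like nuclei at 14 dpi. It stood at 2.19, 4.69 and 3.27 CPM in the intact libraries and at 18.4, 61.0, 14.0 and 3.66 CPM in the injured ones. The first 3 injured values lay above the intact range and the 6 mpi value inside it. At 14 dpi a UMI of COL23A1 was seen in 33.9% of these nuclei, at a median of 7003 UMIs, and in 0.128% of the microglia/macrophage-like nuclei of the same library, at a median of 4104. The high level was found in every cluster of the class with enough nuclei at 14 dpi, from 43.0 CPM in cluster 2 to 70.1 CPM in cluster 0, while in clusters 2 and 5 the intact levels were 0.114 to 1.09 CPM.

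COL22A1, a FACIT collagen chosen in the same way, was at 1.61, 1.32 and 1.88 CPM in intact OPC-like nuclei and at 61.6, 0, 7.68 and 0 CPM in the injured ones. At 7 dpi, 129 of its 143 UMIs lay in the 71 nuclei of cluster 34, at 215 CPM, against 8.15 CPM in the main OPC-like cluster. At 30 dpi, 24 of its 29 UMIs came from 1 nucleus, and the 0 UMIs at 14 dpi and 6 mpi allow up to 1.77 and 3.45 CPM at 3 counts, with exact Poisson upper limits of 2.18 and 4.25 CPM. COL26A1, a collagen with an EMI domain and also chosen in this way, was at 3.78, 3.94 and 4.10 CPM in intact microglia/macrophage-like nuclei and at 15.8, 10.4, 8.09 and 2.59 CPM in the injured ones, above the intact range except at 6 mpi.

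The members' medians lay below intact lumbar cord in all 4 injured libraries in OPC-like nuclei and at 7, 14 and 30 dpi in microglia/macrophage-like nuclei. In oligodendrocyte-like nuclei the median log2 ratio over the 29 members was −0.01, 0.12, 0.03 and 0.12 in the order of time, beside 0.13, −0.00, 0.00 and 0.13 over all 16086 genes. In OPC-like nuclei it was −0.15, −0.30, −0.37 and −0.49 over 27 members, beside 0.14, 0.00, 0.04 and 0.10 over all genes. There 25.9% to 37.04% of the members were above intact lumbar cord, against 50.03% to 61.5% of all genes. In neuron-like nuclei it lay between −0.05 and 0.07 over 37 members, beside −0.02 to 0.05 over all genes. In astrocyte-like nuclei it was 0.26, −0.10, 0.16 and −0.16 over 24 members, beside 0.15, 0.05, 0.04 and 0.11 over all genes. In microglia/macrophage-like nuclei it was −0.30, −0.16, −0.27 and 0.27 over 22 members, beside 0.04, −0.06, −0.06 and 0.19 over all genes, and 18.2%, 31.8%, 31.8% and 68.2% of the members were above, against 52.9%, 44.1%, 44.9% and 63.4% of all genes. Fibroblast markers summed to 3.42 to 12.5 CPM in OPC-like and 1.99 to 6.28 CPM in oligodendrocyte-like nuclei over the 7 libraries, with 2 to 4 and 3 to 6 of the 6 markers detected.

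Over all nuclei of a library, collagen UMIs summed to 1439, 1619 and 1402 CPM in the intact and 1027, 1088, 1105 and 1236 CPM in the injured libraries. All injured libraries lay below all intact ones. Their log2 ratios to intact lumbar cord were −0.45, −0.37, −0.34 and −0.18, and −0.68, −0.87, −0.71 and −0.49 with every nucleus thinned to 1000 UMIs. When the collagen level of each class was weighted by the class shares of UMIs of intact lumbar cord, the injured libraries came to 1224, 1329, 1289 and 1399 CPM, or log2 ratios of −0.20, −0.08, −0.12 and −0.00. Microglia/macrophage-like nuclei were the class with the least collagen. They made up 18.0% to 23.0% of the nuclei in the intact and 38.1% to 50.7% in the injured libraries. OPC-like nuclei made up 6.82% to 13.2% of the nuclei in the intact and 2.56% to 4.06% in the injured libraries. These are shares of nuclei, while the weights above are shares of UMIs.

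**Figure D4:**
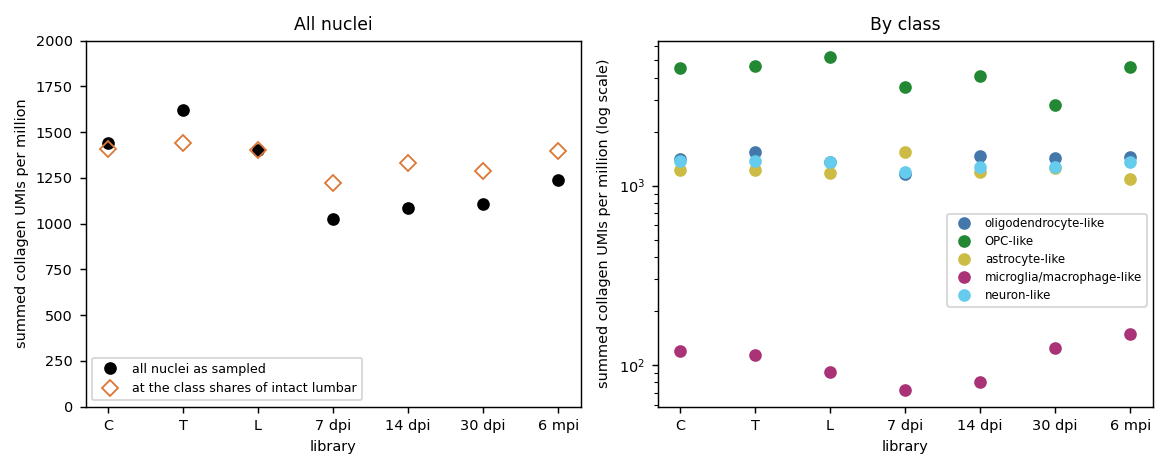
Left, collagen CPM summed over the 41 genes in all nuclei of each library (black circles) and with every class given its share of UMIs in intact lumbar cord (open diamonds). Right, the same sum within each of the 5 major classes on a log scale; the injured black circles lie at 1027 to 1236, below the intact ones at 1402 to 1619, while the diamonds lie between 1224 and 1443.

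Among neurons, some collagen genes were high in single groups of nuclei. The neuron-like class left out cluster 36, 91 unnamed nuclei with a median of 113376 UMIs. Its best score was for neuron markers, and its leading genes include SLC5A7. The 9772 neuron-like nuclei were clustered without collagen or transmitter genes into 38 sub-clusters, 36 of them with at least 50 nuclei, and of 37 members with at least 50 UMIs in these nuclei 13 had a level in 1 sub-cluster at least 10 times that of all other neuron-like nuclei, beside 6.86% of all 19363 genes, among them the genes the sub-clusters were made from. For COL6A2, COL17A1 and COL22A1, named because they were exceptions, that sub-cluster was above the other neurons in only 6, 5 and 4 of the 7 libraries. COL4A3 and COL4A4 had their highest level in the same sub-cluster, 23, of 205 nuclei expressing GAD1, GAD2, SLC6A5 and SLC32A1, genes of inhibitory transmission. They stood there at 103 and 156 CPM, 17.3 and 31.3 times the other neurons, and both were higher there than in the other neurons in all 7 libraries. COL4A6 reached 55.0 CPM in sub-cluster 10 of the same transmitter group.

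Other collagens, like those above chosen after their values were seen, peaked in sub-clusters expressing SLC17A6, the vesicular glutamate transporter of excitatory neurons. COL21A1, a FACIT collagen, reached 561 CPM in sub-cluster 16, where 99.6% of nuclei had a UMI of it, at 333 to 719 CPM in the 7 libraries against 30.7 to 61.2 in the other neurons. COL13A1, a transmembrane collagen of the neuromuscular junction, had 52.3% of its neuron-like UMIs in sub-cluster 13, which holds 260 nuclei, and was at 48.3 to 106 CPM there in the 7 libraries against 0.693 to 2.51 in the other neurons. COL27A1 stood at 190 CPM in sub-cluster 30, 31.7 times the other neurons. COL2A1, the main fibre of cartilage, was at 48.4 CPM in sub-cluster 11, with 63.5 to 83.7 CPM in the intact and 9.02 to 28.8 CPM in the injured libraries, on 7 to 96 UMIs a library. COL25A1 ranged over the sub-clusters with a median of 338 CPM, up to 1729 in sub-cluster 35 of the SLC17A6 group and 1720 in sub-cluster 21 of the inhibitory group. COL4A5 and COL11A2 had their highest neuron-like level in sub-cluster 4, whose leading genes include MBP and ST18 of oligodendrocytes, and those values are not read as neuronal.

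**Figure D5:**
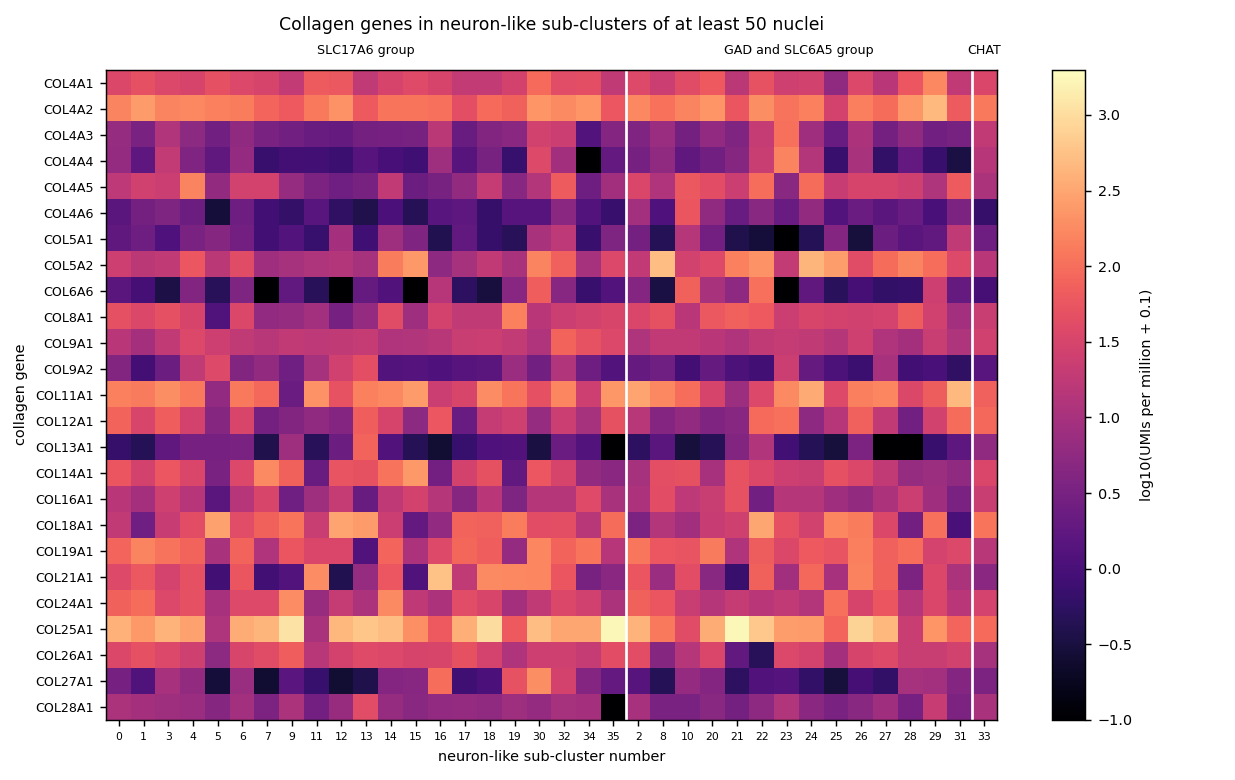
Collagen genes with at least 1000 UMIs in neuron-like nuclei (rows) in the 36 sub-clusters of at least 50 nuclei (columns, grouped by which transmitter gene set was highest relative to its own maximum), as log10 of CPM plus 0.1. COL4A3 and COL4A4 share their brightest column, sub-cluster 23, while COL21A1 (sub-cluster 16), COL13A1 (13) and COL27A1 (30) each have another.

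Some collagens also differed between the 3 intact segments. COL4A3 and COL4A4 in astrocyte-like nuclei were lower in thoracic than in lumbar cord, with log2 ratios of −1.83 and −1.84. The mix of the 2 astrocyte-like clusters differed too: cluster 13, where COL4A3 is high, held 353 of the cervical, 270 of the thoracic and 467 of the lumbar nuclei, and cluster 10 held 515, 1106 and 484. Within cluster 13 COL4A3 was at 99.8, 71.6 and 112 CPM in cervical, thoracic and lumbar cord, a smaller relative spread than the 48.0, 18.5 and 65.5 CPM of the class. COL14A1, a FACIT collagen, was at 187 CPM in thoracic OPC-like nuclei against 119 in cervical and 91.3 in lumbar ones. COL6A6 in neuron-like nuclei was at 10.75 CPM in cervical, 7.67 in thoracic and 4.88 in lumbar cord. These genes were chosen after their values were seen, and each segment is 1 library.

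Genes that make, bind or break down collagen were called in every major class except the neuron-like one. The number of genes tested is given only for lists that held a gene named here. None of the genes tested on the 4 lists was called in neuron-like nuclei. That is near the share of all genes called there, 0.093% higher and 0.103% lower. In oligodendrocyte-like nuclei, where 0.46% of all genes were called higher, 1 of 25 biosynthesis genes was, P4HA3, a subunit of the prolyl hydroxylase that stabilises the triple helix, at 6.19, 5.89 and 3.74 CPM in the intact and 18.9, 8.88, 10.1 and 19.99 CPM in the injured libraries. In OPC-like nuclei (0.325% of all genes called lower) 1 of 10 basement membrane partners was called lower, LAMA2, a laminin chain, on no more than 14 UMIs in an injured library.

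In microglia/macrophage-like nuclei, the major class with the highest share of all genes called (1.72% higher and 1.16% lower), 2 of 6 degradation genes tested were called higher, and both are matrix metalloproteinases. MMP14, a membrane-bound collagenase, was at 2.52, 2.51 and 1.501 CPM in the intact and 12.5, 8.09, 35.6 and 36.9 CPM in the injured libraries, and none of the injured values overlapped the intact ones. MMP9, a gelatinase named because only 2 genes of the list were called, had at most 3 UMIs in an intact library and 24, 29, 129 and 80 UMIs in the injured ones. Of 10 receptors, 2 were called lower, ADGRG1, a receptor of type III collagen, and ADGRG6, a receptor of type IV collagen. ADGRG1 was at 141, 124 and 149 CPM in the intact and 64.4, 60.3, 20.4 and 56.0 CPM in the injured libraries. ADGRG6 was at 5.74, 2.95 and 9.42 CPM in the intact and 1.08, 2.19, 1.18 and 1.13 CPM in the injured libraries. P3H3, a relative of the prolyl hydroxylases and 1 of 26 biosynthesis genes tested, and NID1, a basement membrane linker and 1 of 10 partners, were called higher, P3H3 with 4.81 to 6.83 CPM in the injured against 1.23 to 3.31 in the intact libraries and NID1 with 28.9, 3.71, 6.75 and 4.37 CPM in the injured against 0.14, 1.61 and 0.955 in the intact libraries.

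In astrocyte-like nuclei, where 0.956% of all genes were called higher and 0.456% lower, PCOLCE2, an enhancer of procollagen cleavage and 1 of 23 biosynthesis genes tested, was called higher, at 1.09, 1.37 and 1.41 CPM in the intact and 10.1, 7.69, 6.28 and 7.18 CPM in the injured libraries, on 4 to 13 UMIs each. ITGA1, a subunit of a collagen-binding integrin and 1 of 8 receptors, and NID2, a basement membrane linker and 1 of 11 partners, were called lower, on at most 11 and 21 UMIs in an injured library.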

How the data were processed

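Droplet-based single-nucleus libraries (10x Genomics version 3 chemistry, per the study's methods) were analysed from the deposited UMI counts, which the authors made with Cell Ranger 6.0.0 against Mmul_10. The annotation release and whether intronic reads were counted are not given in the sources used here. Nuclei with more than 500 genes, more than 1000 UMIs, under 10% mitochondrial and under 5% hemoglobin counts were kept, and the 5% with the highest Scrublet doublet scores per library were removed. Nuclei were clustered with scanpy 1.11.5 and leidenalg 0.10.2 (2000 variable genes without collagens, 30 components, 20 neighbours, resolution 1). Counts were summed per class and library and scaled to CPM (per 1000000). Intervals (95%) are exact Poisson or conditional binomial intervals (scipy 1.17.1) and cover counting error only. The call rule was tested on simulated counts in which libraries differed only by total UMIs, counting error and planted changes. Variation between animals or libraries was not simulated, so that test says nothing about it. The collagen genes, gene lists and rules were chosen with earlier results of these data known. Values in every library are given for called genes, the 3 collagens of each major class with the highest mean CPM over the 7 libraries (not the most UMIs), COL1A1, COL1A2, COL3A1, COL4A1, COL4A2 and COL6A1 to COL6A3 in the class where they are highest, and up to 4 called pathway genes per class; other genes given by library, the neuron sub-cluster genes included, were chosen after their values were seen. Positions and sequences come from RefSeq on Mmul_10, which held 40 of the 41 genes.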

Additional observations from a re-analysis of the deposited data

Results flagged for a closer look

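COL4A1 and COL9A1 differed in opposite directions in 2 classes, with all 4 injured libraries above the intact range in one class and below it in the other; the difference between the classes was not tested. COL4A1 in astrocyte-like nuclei was at 4.245, 1.91 and 2.95 CPM in intact cervical, thoracic and lumbar cord and at 18.9, 5.33, 13.3 and 5.39 CPM at 7 dpi, 14 dpi, 30 dpi and 6 mpi, on 3 to 19 UMIs in the injured libraries. In neuron-like nuclei it was at 43.4, 42.8 and 38.8 CPM in the intact and 38.0, 34.6, 36.6 and 30.6 CPM in the injured libraries, where the 7 dpi value lay close to the lowest intact one.

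COL9A1 in astrocyte-like nuclei was at 102.5, 108.4 and 94.7 CPM in the intact and 175.4, 151.5, 122.8 and 168.8 CPM in the injured libraries. In oligodendrocyte-like nuclei it was at 135.6, 139.9 and 122.5 CPM in the intact and 99.4, 58.7, 60.1 and 114.4 CPM in the injured libraries. The astrocyte-like log2 ratio at 30 dpi went from 0.38 to −0.03 when each nucleus was named on its own, so the opposite directions did not hold in all 4 injured libraries under that naming.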

How the results depend on the processing

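No paired analysis was possible because each group is 1 library without replicates, and for the same reason no library could be left out of a group. Of 400 log2 ratios recomputed under the alternatives, 19 changed sign, of which 7 with each nucleus named on its own and 6 with thinning to 1000 UMIs. They belong to 8 gene and class pairs (COL9A1 in OPC-like, astrocyte-like and microglia/macrophage-like, COL4A5 and COL27A1 in astrocyte-like, COL24A1 in microglia/macrophage-like, and COL4A2 and COL11A1 in neuron-like nuclei), and 0 of them to a called gene. Of the counts of called genes, 52 of the alternative values stayed within 1.5 times the value given and 4 did not: a 1.5-fold rule called 2 genes in oligodendrocyte-like nuclei (COL4A2 and COL11A2) and 1 in astrocyte-like nuclei (COL4A1), the mean of the 3 intact libraries as baseline called 0 in OPC-like nuclei, and the range of intact lumbar and cervical cord alone called 1 in astrocyte-like nuclei (COL4A3). The log2 ratios of summed collagen over all nuclei at 7 dpi, 14 dpi, 30 dpi and 6 mpi were −0.68, −0.87, −0.71 and −0.49 with every nucleus thinned to 1000 UMIs, −0.53, −0.45, −0.43 and −0.27 against the mean of the 3 intact libraries, and −0.48, −0.34, −0.32 and −0.23 centred on the median gene; the cause was not tested. With fibroblast-like and mural-like nuclei compared too, an alternative added after seeing the data, 5 genes were highest in OPC-like, 4 in ependymal-like and 1 in endothelial-like nuclei. Thinning gave 0 for microglia/macrophage-like and 4 for endothelial-like nuclei, naming each nucleus on its own gave 2 for endothelial-like nuclei, and keeping doublets gave 1 for T cell-like nuclei. Of the log2 ratios of named genes, 281 alternative values lay inside the counting interval of the value given and 103 outside it. Without the OPC-like cluster 34, an alternative added after seeing the data, 1 gene was called in OPC-like nuclei. The median gene of a class was shifted from intact lumbar cord by at most 0.19 (log2). Small classes and low counts limit what can be seen.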
